A study of Mus musculus with 8 samples.

Results

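The 10 genes described here encode the endothelin system and the prostacyclin and thromboxane branches of prostanoid synthesis, which are the vasoconstrictor and vasodilator signals that the vessel wall makes for itself. They were taken by symbol from the count tables: Edn1, Ece1, Ednra and Ednrb for endothelin, and Ptgs1, Ptgs2, Ptgis, Ptgir, Tbxas1 and Tbxa2r for prostanoids. All 10 symbols were found among the 25526 genes listed. The samples were aortas of male Marfan mice of genotype Fbn1C1041G/+, a heterozygous missense allele of fibrillin-1, 4 of them aged 2 years and 4 aged 12 weeks. The series asked how aneurysms whose growth had stopped at the older age differ from those still growing at the younger. Every library carries the mutant allele and no wild-type aorta of either age is analysed here, so age and the state of the aneurysm cannot be told apart. RNA was measured by bulk sequencing of aortic tissue. In such samples fewer cells of a type and less RNA per cell cannot be told apart.

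Endothelin-1, the product of Edn1, is a constrictor peptide released mainly by endothelium after its precursor has been cut by endothelin converting enzyme 1, the product of Ece1. It acts on receptor A (Ednra) of smooth muscle, which drives contraction, and on receptor B (Ednrb), which in endothelium promotes release of nitric oxide and prostacyclin and clears the peptide. Prostanoids are made from arachidonic acid by cyclooxygenase 1 (Ptgs1), which most cells make constantly, and cyclooxygenase 2 (Ptgs2), which is inducible. Prostacyclin synthase (Ptgis) then yields prostacyclin, which relaxes smooth muscle through its receptor (Ptgir), and thromboxane synthase (Tbxas1) yields thromboxane, which constricts it through its own receptor (Tbxa2r) and is known above all from platelets and macrophages.

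Library totals ranged from 16251986 to 33880690 counts at 2 years and from 23622803 to 27417541 counts at 12 weeks. Smooth muscle, endothelial and fibroblast markers were present in every library and no listed marker had a mean of 0 CPM (counts scaled to the library's size) in either age group. Marker RNA of several cell types differed with age. Of 10 macrophage markers 9 rose, with a summed level of 2495 to 3560 CPM at 2 years against 755 to 1042 CPM at 12 weeks. All 4 tested platelet and megakaryocyte markers of 7 listed rose, at 36.7 to 101.7 CPM against 18.6 to 28.6 CPM. Among them only Pf4 had levels that did not overlap between the ages. The highest sum was in 2 years replicate 2, where Ppbp was at 25.3 CPM, against 1.32 to 6.56 CPM in the other 2-year libraries, and Itga2b at 22.8 CPM, against 1.77 to 6.69 CPM. Of 10 smooth muscle markers 7 fell, at 17944 to 27003 CPM against 31763 to 37734 CPM. Among 12 endothelial markers Tek and Erg fell and the other 10 did not pass the test, at 604 to 827 CPM against 586 to 1220 CPM. In 2 years replicate 3 the summed mesothelial level stood apart at 452.7 CPM, against 108.7 to 154.2 CPM in the other 2-year libraries. That library's fibroblast sum was 13432 CPM against 5223 to 7065 CPM, and its adipocyte sum 302.4 CPM against 93.5 to 218.9 CPM. In 12 weeks replicate 3 the summed cardiac muscle level was 1139 CPM, against 220.4 to 289.3 CPM in the other 12-week libraries. Its adipocyte sum was 280.9 CPM against 42.3 to 94.4 CPM. Fold changes also moved with transcript length, the median log2 fold change being 0.42 over the 3446 shortest and -0.43 over the 3446 longest transcripts. Values with an offset that removes the trend on transcript length and GC share in each library are therefore given beside a result wherever they change its call.

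At 2 years 6 of the 10 genes were higher and 0 were lower (edgeR quasi-likelihood test, Benjamini-Hochberg adjusted p below 0.05 over 13978 genes). Tbxas1 and Ptgs2 rose most, by 3.43-fold and 3.05-fold, and Ednrb, Ptgs1, Edn1 and Ptgis rose by 1.49-fold to 1.78-fold. The receptors Ednra, Ptgir and Tbxa2r and the enzyme Ece1 did not pass the test. Across all genes tested 25.8% were called higher and 52.0% were called in either direction. The median log2 fold change, 2 years over 12 weeks, was 0.61 over the 10 genes and -0.01 over all genes tested. The 10 genes were chosen with earlier results of these data known, so setting them against all genes describes the list and does not test it. The levels of both ages did not overlap for Ptgs1, Ptgs2 and Tbxas1, and 49.6% of all genes tested had groups that did not overlap, 24.3% with 2 years higher and 25.3% with 2 years lower. These 3 genes were called in all 16 alternative settings. The count of called genes depended on single libraries: it was 3 without 12 weeks replicate 2 or without 2 years replicate 2, and 4 without 12 weeks replicate 3 and 2 years replicate 3 together.

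**Figure D1:**
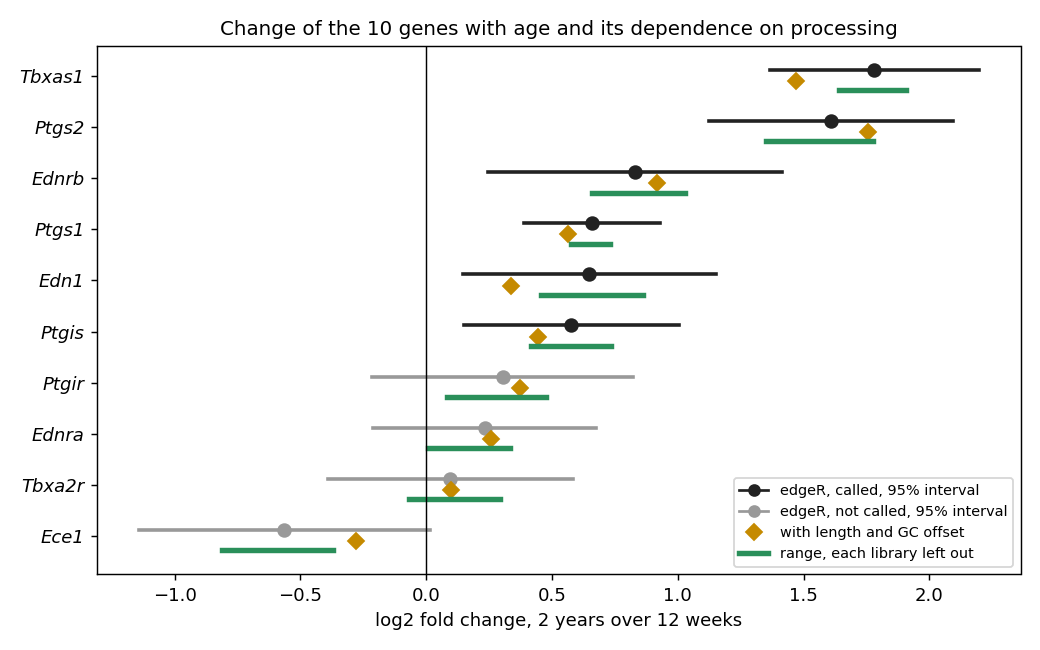
Log2 fold change, 2 years over 12 weeks, of the 10 genes with 95% intervals from edgeR (black where called, grey where not), the value with the length and GC offset (diamonds) and the range when each library is left out in turn (green bars). Tbxas1 at 1.78 and Ptgs2 at 1.61 lie farthest to the right, and Ece1 at -0.56 is the single gene left of 0.

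Edn1, the ligand, was at 26.7, 28.01, 26.9 and 36.5 CPM in 2 years replicates 1 to 4, against 10.96, 18.8, 18.8 and 26.8 CPM in 12 weeks replicates 1 to 4. The groups overlapped narrowly, since the highest 12-week library reached the lowest 2-year one. The mean was 29.5 ± 4.70 CPM at 2 years and 18.8 ± 6.47 CPM at 12 weeks (SD, n = 4 each), or 0.65 as a log2 ratio of the ages (SE 0.23; adjusted p = 0.0333 by edgeR). The lowest value belonged to 12 weeks replicate 1, which also had the lowest summed endothelial markers of its age, 586 CPM against 1111 to 1220 CPM in the other 3. The Edn1 call did not survive the length and GC offset (log2 fold change 0.34, adjusted p = 0.263, and 0.00898 to 0.263 over all alternatives). It was also lost without 12 weeks replicate 1 (0.46), 12 weeks replicate 2 (0.64), 12 weeks replicate 3 (0.64), 2 years replicate 2 (0.65) or 2 years replicate 4 (0.53). In GENCODE M21 an antisense transcript, Gm47118, overlaps Edn1, and strand handling is not given in the sources used here. The Edn1 promoter is shown because the ligand is where the pathway begins. It is the RefSeq window of build GRCm38.p6 at chr13:42301226-42301525 on the plus strand, 250 bases before to 50 after the annotated start, with capitals marking a match to the GATA motif AGATAA on the reverse strand at bases 9 to 14 after the start.
Edn1 promoter: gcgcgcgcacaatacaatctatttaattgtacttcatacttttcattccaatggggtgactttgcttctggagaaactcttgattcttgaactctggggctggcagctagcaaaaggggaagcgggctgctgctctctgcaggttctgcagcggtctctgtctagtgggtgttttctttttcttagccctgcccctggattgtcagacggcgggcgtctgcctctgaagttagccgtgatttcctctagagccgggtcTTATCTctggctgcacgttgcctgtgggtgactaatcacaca
Of 32851 promoter windows of the same length 11.2% hold that motif on either strand.

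Ece1, the converting enzyme, was the most abundant endothelin gene in CPM. It was at 143, 78.5, 166 and 227 CPM in 2 years replicates 1 to 4, against 189, 252, 219 and 249.4 CPM in 12 weeks replicates 1 to 4. Replicates 1 to 3 at 2 years were below every 12-week library and replicate 4 was not. The means were 154 ± 61.4 and 227 ± 29.5 CPM, a log2 fold change of -0.56 (95% interval -1.14 to 0.01, edgeR adjusted p = 0.0922). Without 2 years replicate 4 it was -0.81 and called lower (adjusted p = 0.0159, and 0.0159 to 0.355 over all alternatives). The Ece1 transcript, at 4816 nt, is the longest of the 10, and with the offset the value was -0.28.

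Ednrb, receptor B, rose while Ednra, receptor A, did not pass the test. Ednrb was at 29.0, 31.9, 26.7 and 14.3 CPM in 2 years replicates 1 to 4, against 9.08, 13.7, 16.4 and 18.1 CPM in 12 weeks replicates 1 to 4. Replicate 4 at 2 years fell within the 12-week range and the other 3 lay above it. Its log2 fold change was 0.83 (SE 0.26; adjusted p = 0.0218 by edgeR), and the call was lost without 12 weeks replicate 1 (0.66), 12 weeks replicate 2 (0.80), 2 years replicate 1 (0.76) or 2 years replicate 2 (0.68). Without replicate 3 of both ages it was 0.89 with an adjusted p of 0.0509 by edgeR (0.00255 to 0.0757 over all alternatives). Schwann cells also make receptor B. The Schwann cell markers Mbp and S100b rose and 3 others did not pass the test; their part in the Ednrb result was not tested.

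Ednra was at 21.2, 26.0, 38.9 and 21.8 CPM in 2 years replicates 1 to 4, against 17.8, 23.3, 24.03 and 26.3 CPM in 12 weeks replicates 1 to 4. The ages overlapped, and 2 years replicate 3 stood above the other 7 libraries. The log2 fold change was 0.23 (95% interval -0.21 to 0.68, edgeR adjusted p = 0.354), and 0.01 without 2 years replicate 3. An overlapping antisense-strand transcript, 4933431K23Rik, is annotated at Ednra.

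**Figure D2:**
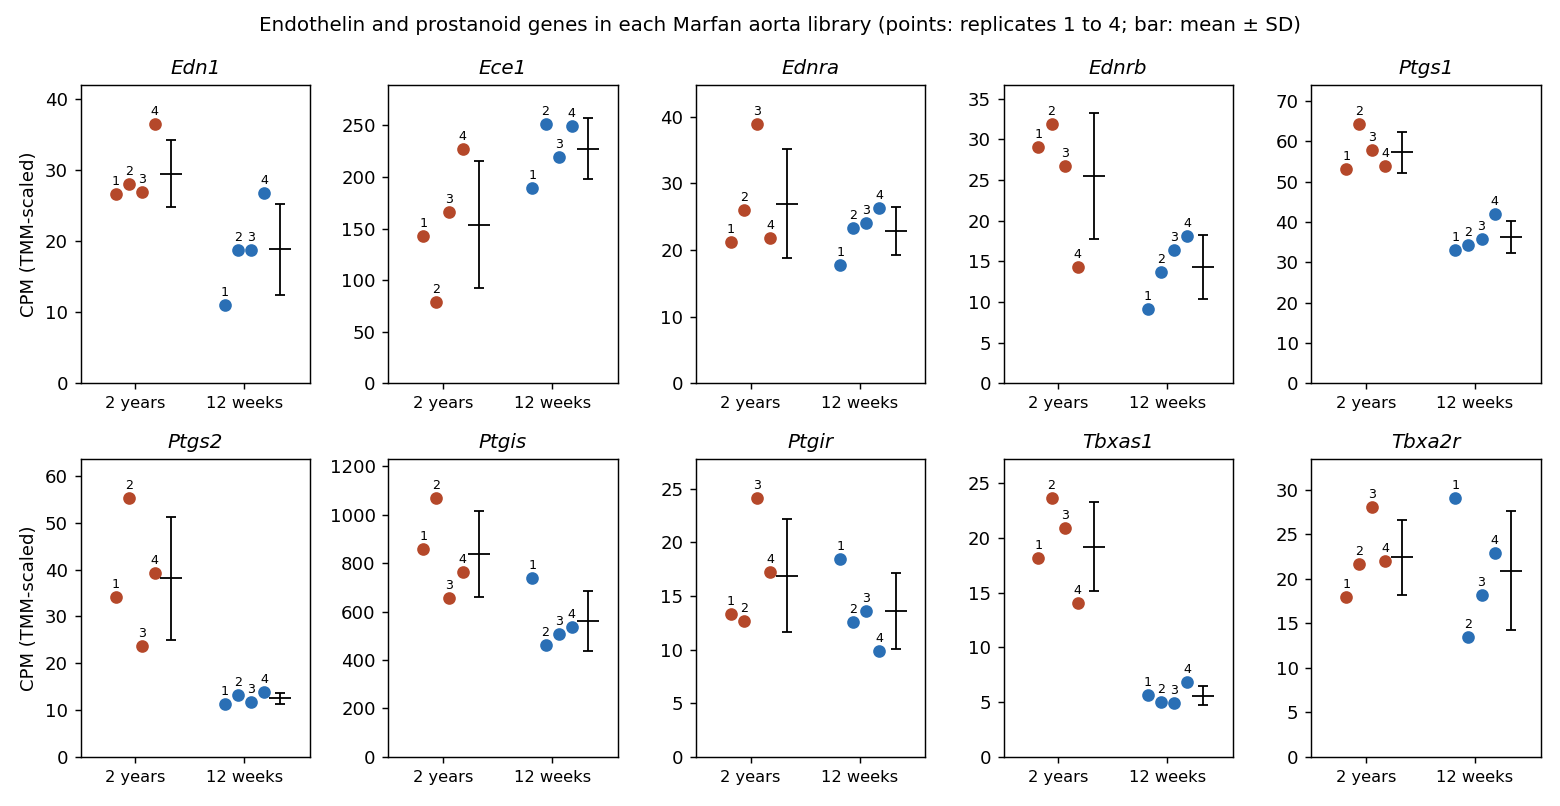
Level of each of the 10 genes in CPM in the 4 libraries at 2 years (red, left) and the 4 at 12 weeks (blue, right), numbered by replicate, with the mean ± SD in black and each axis starting at 0. Ptgs1, Ptgs2 and Tbxas1 show no overlap between ages, and Ednra, Ptgir and Tbxa2r overlap widely.

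The cyclooxygenases both rose. Ptgs1 was at 53.3, 64.4, 57.9 and 54.0 CPM in 2 years replicates 1 to 4, against 33.1, 34.4, 35.9 and 42.0 CPM in 12 weeks replicates 1 to 4, so every 2-year library exceeded every 12-week library. Its means were 57.4 ± 5.09 and 36.3 ± 3.94 CPM, or 0.66 as a log2 ratio of the ages (SE 0.12; adjusted p = 0.00109 by edgeR). Ptgs2 was at 34.1, 55.4, 23.8 and 39.3 CPM in 2 years replicates 1 to 4, against 11.2, 13.1, 11.8 and 13.9 CPM in 12 weeks replicates 1 to 4. The inducible enzyme was tightly grouped at 12 weeks and spread over more than a doubling at 2 years, with replicate 3 lowest and replicate 2 highest. Its means were 38.1 ± 13.2 and 12.5 ± 1.202 CPM, or 1.61 as a log2 ratio of the ages (SE 0.22; adjusted p = 0.00015 by edgeR). With each library left out in turn Ptgs2 ranged from 1.35 to 1.78 and Ptgs1 from 0.58 to 0.73. Without 2 years replicate 2, the library with the highest platelet markers and the highest level of both enzymes, Ptgs1 was at 0.58 and Ptgs2 at 1.35, and both were called. Macrophage and platelet markers were higher at 2 years as well; platelets are a known source of cyclooxygenase 1 and activated macrophages of cyclooxygenase 2, and the part of either in these results was not tested.

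The promoters of Ptgs2 and Tbxas1, the 2 genes with the largest rises, are shown so that they can be set side by side. Both come from RefSeq on build GRCm38.p6 and the plus strand, 250 bases before to 50 after the annotated start, at chr1:150099781-150100080 for Ptgs2 and chr6:38918736-38919035 for Tbxas1. Capitals mark matches, on either strand, to 6 motifs. They are the TATA box (TATAAA), the AP-1 motif (TGANTCA), the cAMP response element (TGACGTCA), the GATA motif given above, the E-box (CACGTG) and an NF-kappaB motif.
Ptgs2 promoter: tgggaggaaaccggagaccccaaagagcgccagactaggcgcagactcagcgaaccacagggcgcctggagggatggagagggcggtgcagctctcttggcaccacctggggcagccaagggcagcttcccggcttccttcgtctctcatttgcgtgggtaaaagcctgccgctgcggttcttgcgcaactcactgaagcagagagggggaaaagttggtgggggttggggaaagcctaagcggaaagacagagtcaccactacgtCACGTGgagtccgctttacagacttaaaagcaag
Tbxas1 promoter: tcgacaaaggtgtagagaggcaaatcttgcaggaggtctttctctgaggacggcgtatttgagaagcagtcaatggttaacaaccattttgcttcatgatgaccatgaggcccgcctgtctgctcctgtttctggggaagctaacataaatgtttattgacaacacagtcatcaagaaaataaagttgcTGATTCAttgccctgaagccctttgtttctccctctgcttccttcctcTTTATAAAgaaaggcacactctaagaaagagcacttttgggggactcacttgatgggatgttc
In the Ptgs2 window the match is an E-box at bases 17 to 22 after the start, a motif held by 7.15% of windows. In the Tbxas1 window there are an AP-1 match at bases -61 to -55 and 2 overlapping TATA box matches on opposite strands, from -13 to -6, motifs held by 7.81% and 13.6% of windows. By exact match the 2 windows share none of the 6 motifs searched, and the Edn1 window shares none with either. A site that differs from the motif as written is not marked, so a missing mark does not show that such a site is absent. The other motifs are held by 1.79% of windows for the cAMP response element and 5.56% for NF-kappaB. Windows were found for 9 of the 10 genes, not for Ptgis.

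Ptgis, prostacyclin synthase, was by far the most abundant of the 10 genes. It was at 858, 1070, 657 and 764 CPM in 2 years replicates 1 to 4, against 739, 461, 508 and 537 CPM in 12 weeks replicates 1 to 4. The 12 weeks replicate 1 library lay among the 2-year values and the other 3 lay below them. Its means were 837 ± 176 and 561 ± 122 CPM, or 0.58 as a log2 ratio of the ages (SE 0.19; adjusted p = 0.0271 by edgeR). The call was lost without 12 weeks replicate 2 (0.49), 12 weeks replicate 3 (0.53), 12 weeks replicate 4 (0.55), 2 years replicate 1 (0.57) or 2 years replicate 2 (0.42). Transcripts on the opposite strand, 1110018N20Rik and Gm14291, overlap Ptgis in GENCODE M21.

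Ptgir, the prostacyclin receptor, was at 13.3, 12.7, 24.2 and 17.3 CPM in 2 years replicates 1 to 4, against 18.4, 12.6, 13.6 and 9.85 CPM in 12 weeks replicates 1 to 4. The ages overlapped over most of their range, and 2 years replicate 3 was the highest of all. The log2 fold change was 0.30 (95% interval -0.21 to 0.82, edgeR adjusted p = 0.299), and 0.08 without 2 years replicate 3.

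Tbxas1, thromboxane synthase, rose by the largest factor of the 10. It was at 18.1, 23.7, 20.9 and 14.1 CPM in 2 years replicates 1 to 4, against 5.63, 5.00, 4.88 and 6.81 CPM in 12 weeks replicates 1 to 4. Even the lowest 2-year library exceeded the highest 12-week library. The means were 19.2 ± 4.10 and 5.58 ± 0.883 CPM, or 1.78 as a log2 ratio of the ages (SE 0.19; adjusted p = 2.75e-05 by edgeR). Without 2 years replicate 2, where Tbxas1 and the platelet markers were highest, it was 1.64 and called. Summed platelet markers in the other 2-year libraries, at 36.7 to 64.9 CPM, still lay above the 18.6 to 28.6 CPM of 12 weeks. Most of each of these sums was Pf4, at 31.3 to 45.9 CPM against 14.7 to 22.7 CPM. Ppbp, Itga2b and Gp1ba overlapped between the ages, so the sums do not show a rise of platelet markers other than Pf4 in those libraries. The part of platelets or macrophages in the Tbxas1 result was not tested. Tbxas1 had 322 to 636 counts per library at 2 years and 129 to 168 at 12 weeks. The protein-coding gene Hipk2 overlaps Tbxas1 on the opposite strand, so some of their reads may not be separable. Hipk2 was at 14.3 to 51.8 CPM at 2 years and 34.8 to 43.6 CPM at 12 weeks, a log2 fold change of -0.38 that did not pass the test (edgeR adjusted p = 0.34).

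Tbxa2r, the thromboxane receptor, was at 17.9, 21.7, 28.01 and 22.0 CPM in 2 years replicates 1 to 4, against 29.1, 13.5, 18.2 and 22.9 CPM in 12 weeks replicates 1 to 4. The 12-week values enclosed the 2-year values at both ends. The log2 fold change was 0.10 (95% interval -0.39 to 0.58, edgeR adjusted p = 0.737), and it turned to -0.07 without 12 weeks replicate 2 and to -0.03 without 2 years replicate 3.

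Per kilobase of transcript the same 3 genes, Ptgis, Ece1 and Ptgs1, led the order at both ages. Ptgis had 397 ± 83.3 CPM per kilobase at 2 years and 266 ± 58.1 at 12 weeks (SD, n = 4 each), above every other gene in every library. Ece1 came next, at 31.9 ± 12.8 and 47.2 ± 6.13 CPM per kilobase, followed by Ptgs1 at 20.01 ± 1.77 and 12.7 ± 1.37. Ranges of Ece1 and Ptgs1 overlapped at 2 years and not at 12 weeks. Below these 3 genes the ranges of each gene and the next overlapped at both ages. Tbxas1 was last at 12 weeks, at 2.80 ± 0.444 CPM per kilobase, level with Ptgs2 at 2.81 ± 0.27. At 2 years Ptgir was last, at 5.11 ± 1.59 CPM per kilobase, and Tbxas1 had 9.65 ± 2.06 and Ptgs2 8.56 ± 2.96.

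Ratios between paired genes within a library do not depend on the scaling between libraries, and 5 of them were compared by an exact permutation test, together with 10 ratios of a gene to summed cell type markers. With 4 libraries per age the smallest two-sided p that this test can give is 0.0286. Adjusted over the 15 ratios, 0 had a p below 0.05, and 8 had an unadjusted p below 0.05, each with groups that did not overlap. Under the offset for length and GC 9 of the 15 had an adjusted p of 0.0476, 3 of them between paired genes. For a ratio at the smallest p the adjusted value is set by how many ratios reach it, 0.0536 with 8 and 0.0476 with 9. A step between these 2 values therefore says nothing about the single ratio. Tbxas1 over Ptgis, the thromboxane to prostacyclin synthase ratio, averaged -5.44 ± 0.34 on the log2 scale at 2 years and -6.62 ± 0.31 at 12 weeks (SD, n = 4 each). The difference was 1.18 (SE 0.23, exact permutation p = 0.0286, adjusted p = 0.0536), so the ratio was higher in every 2-year library, while Ptgis was the more abundant in all 8. With the offset the difference was 1.03 (exact permutation, adjusted p = 0.0476). Ptgs2 over Ptgs1 differed by 0.88 (SE 0.23, exact permutation p = 0.0286, adjusted p = 0.0536), from -1.28 to -0.22 across the 2-year libraries and from -1.59 to -1.39 across the 12-week libraries, and by 1.13 with the offset (adjusted p = 0.0476). Edn1 over Ece1, the ligand relative to its converting enzyme, differed by 1.36 (SE 0.33, exact permutation p = 0.0286, adjusted p = 0.0536), and by 0.72 with the length and GC offset.

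The receptor ratios overlapped between the ages without the offset. Ednrb over Ednra was 0.45, 0.30, -0.54 and -0.61 on the log2 scale in 2 years replicates 1 to 4, against -0.97, -0.77, -0.55 and -0.54 in 12 weeks replicates 1 to 4. Receptor B exceeded receptor A in 2 years replicates 1 and 2 and stayed below it in the other 6 libraries (difference 0.60, SE 0.29, exact permutation p = 0.143, adjusted p = 0.195). The offset for length and GC gave a difference of 0.68 (exact permutation, adjusted p = 0.0476), so the call depends on that choice. Tbxa2r over Ptgir differed by -0.16 (SE 0.26, exact permutation p = 0.657, adjusted p = 0.735), with 2-year values from 0.21 to 0.77 inside the 12-week range of 0.10 to 1.21.

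**Figure D3:**
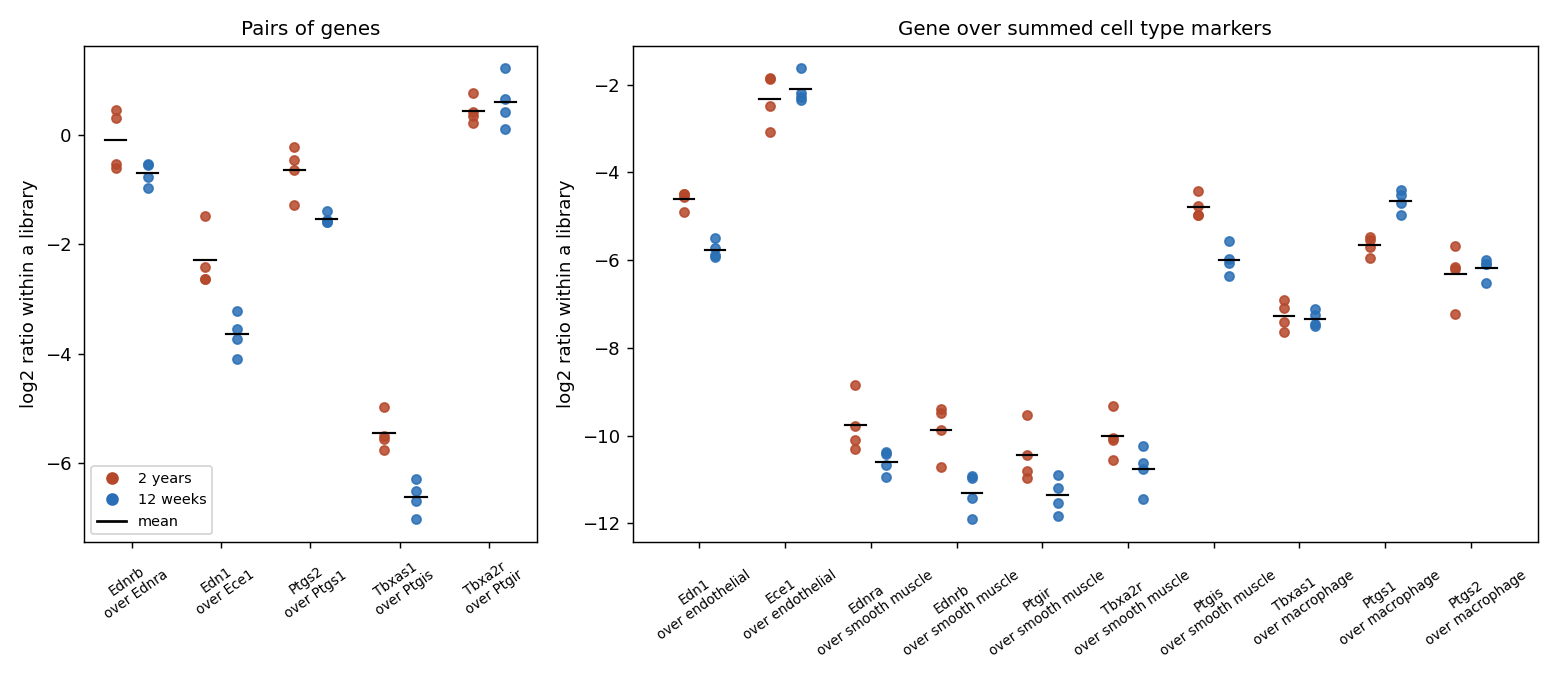
Log2 ratios within each library between paired genes (left) and of a gene to the summed CPM of a cell type's markers (right), with 2 years in red left of 12 weeks in blue, points for the 4 libraries of each age and black lines for means. Tbxas1 over Ptgis separates the ages, while Tbxas1 over macrophage markers overlaps between them.

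Genes were also set against the summed markers of a cell type that carries them, a single type for each gene. Ednrb was not set against endothelial or Schwann cell markers, nor Ptgs1 against platelet markers, and the ratios depend on that choice. Tbxas1 over summed macrophage markers was at -7.26 ± 0.33 on the log2 scale at 2 years and -7.33 ± 0.18 at 12 weeks, a difference of 0.07 (SE 0.19, exact permutation p = 0.686, adjusted p = 0.735). Ptgs2 over the same markers differed by -0.14 (SE 0.35, exact permutation p = 0.743, adjusted p = 0.743). Both directions turned in some alternatives. With the length and GC offset the difference was -0.0037 for Tbxas1 and 0.25 for Ptgs2. Ptgs1 over macrophage markers was lower in every 2-year library, with a difference of -1.02 (SE 0.16, exact permutation p = 0.0286, adjusted p = 0.0536), and -0.89 with the offset (adjusted p = 0.0476). Edn1 over summed endothelial markers was higher by 1.146 (SE 0.14, exact permutation p = 0.0286, adjusted p = 0.0536), with -4.91 to -4.48 at 2 years and -5.92 to -5.50 at 12 weeks. With the offset it was higher by 0.53 and no longer reached the smallest p of the test. Ece1 over the same markers differed by -0.21 (SE 0.33, exact permutation p = 0.629, adjusted p = 0.735). Relative to smooth muscle markers, which fell, Ednra, Ednrb and Ptgis were higher by 0.83, 1.44 and 1.203 (exact permutation p = 0.0286 and adjusted p = 0.0536 for each). Ptgir and Tbxa2r were higher by 0.92 and 0.76, with overlapping groups (exact permutation p = 0.0571 and adjusted p = 0.0857 for both). With the offset these 5 ratios to smooth muscle markers were 0.93, 1.61, 1.14, 1.08 and 0.83, in the same order (exact permutation, adjusted p = 0.0476 for each).

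Beyond the 10 genes, the counts differed between steps of the prostanoid pathway and are read against the 25.8% of all genes tested that were higher. Of 10 terminal synthase and isomerase genes 8 rose, Ptgis and Tbxas1 among them, 0 fell, and the list median log2 fold change was 0.58 against -0.01 for all genes tested. Without Ptgis and Tbxas1, 6 of 8 rose and the median was 0.48. Ptges, the inducible prostaglandin E synthase, averaged 17.5 ± 5.74 CPM at 2 years and 9.12 ± 2.88 CPM at 12 weeks (1.91-fold, edgeR adjusted p = 0.0106). Prxl2b and Akr1b3, which have prostaglandin F synthase activity, and Cbr1, a carbonyl reductase acting on prostaglandins, rose 2.16-fold, 1.54-fold and 1.29-fold. These synthases are short, with a median transcript of 1995 nt against 3175 nt over all genes tested. With the length and GC offset 4 of 10 were called (Ptgis, Tbxas1, Ptges and Ptges2), Prxl2b and Akr1b3 went to 0.46 and 0.12, and Cbr1 turned to -0.21. The count was 5 without 12 weeks replicate 3 or without 12 weeks replicate 4, where Cbr1 was not called (0.35 and 0.37), and 4 without replicate 3 of both ages.

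Of 6 substrate release and cyclooxygenase genes tested 3 rose, Ptgs1 and Ptgs2 among them, and 1 fell. Without Ptgs1 and Ptgs2, 1 of 4 rose and 1 fell. Plaat3, a phospholipase A and acyltransferase, was at 53.98 ± 9.26 CPM at 2 years and 27 ± 10.1 CPM at 12 weeks (2.00-fold, edgeR adjusted p = 0.0044). It was highest in replicate 3 of each age, at 66.4 and 41.2 CPM, where summed adipocyte markers were also highest. The part of fat in the Plaat3 result was not tested, and Plaat3 was called in all 16 alternatives. Pla2g6, a calcium-independent phospholipase A2, was lower at 7.49 ± 1.21 against 10.5 ± 2.18 CPM (log2 fold change -0.49, edgeR adjusted p = 0.0426). Pla2g6 lost its call without 12 weeks replicate 1 (-0.35), 12 weeks replicate 2 (-0.52), 12 weeks replicate 3 (-0.52), 2 years replicate 1 (-0.42) or 2 years replicate 2 (-0.46), without replicate 3 of both ages, and with the offset (-0.31). Of 7 prostanoid receptors tested 2 rose and 0 fell, and both were prostaglandin E receptors that couple to Gs; that share of receptors is close to the 25.8% of all genes tested. Ptger4, the EP4 receptor, was at 19.95 ± 4.28 CPM at 2 years and 9.11 ± 0.609 CPM at 12 weeks (2.19-fold, edgeR adjusted p = 0.000204). Ptger2, the EP2 receptor, was scarce at 1.24 ± 0.374 and 0.315 ± 0.0704 CPM (3.92-fold, adjusted p = 0.00122). Without 12 weeks replicate 3 Ptger3 was called higher as well, making 3 receptors. Ptger3 was at 4.18 CPM in that library, against 1.18 to 1.27 CPM in the other 12-week libraries. Of 5 genes of breakdown and transport 3 rose. Slco2a1, the prostaglandin transporter, was at 165.5, 175.8, 176.2 and 241.7 CPM in 2 years replicates 1 to 4, against 92.9, 97.9, 73.1 and 76.2 CPM in 12 weeks replicates 1 to 4 (2.23-fold, edgeR adjusted p = 0.000151). Hpgd, which inactivates prostaglandins, rose 1.87-fold and the efflux pump Abcc4 rose 1.78-fold, and Hpgd was not called with the offset (0.46).

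On the endothelin side the remaining genes gave little signal. Edn2, Edn3 and Kel were too low to be tested. The peptidase Mme, which degrades endothelin, was at 24.9 ± 2.31 CPM at 2 years and 22.0 ± 9.97 CPM at 12 weeks (log2 fold change 0.18, edgeR adjusted p = 0.609), and 0.82 and called with the offset. Without 12 weeks replicate 1 it was at -0.05. Ece2 was at 11.2 ± 3.27 and 11.2 ± 1.09 CPM, with a log2 fold change of 0.00 whose sign varied between alternatives.

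Downstream coupling genes were more often lower than higher. Of 20 genes that link Gq and G12/13 receptors to contraction 10 fell and 3 rose (median log2 fold change -0.44), and 26.2% of all genes tested fell. Plcb4, a phospholipase C, was at 124 ± 32.7 CPM at 2 years and 395 ± 79.0 CPM at 12 weeks (3.18-fold lower, edgeR adjusted p = 8.66e-05). Arhgef1, a guanine nucleotide exchange factor downstream of G12/13, was at 48.5 ± 4.02 and 129 ± 33.2 CPM (2.67-fold lower), while Plcb3 and Arhgef12 were 1.94-fold and 1.93-fold lower. Rhoa, Gna11 and Plcb2 rose, by 1.40-fold, 1.30-fold and 2.41-fold. With the length and GC offset Gna11 and Plcb2 stayed called and Rhoa did not. Of 18 genes of Gs and cyclic AMP signalling 7 fell and 1 rose, with Adcy6 at 81.4 ± 9.47 and 221 ± 41.4 CPM (2.72-fold lower, edgeR adjusted p = 3.09e-05). The adenylyl cyclases Adcy5 and Adcy7 and the phosphodiesterase Pde3a were 1.74-fold, 1.78-fold and 2.14-fold lower. Without 12 weeks replicate 3 there were 3 higher in this group, without 2 years replicate 3 there were 2. Coupling transcripts were long, with a median of 5902 nt for the contractile list, and 7 of 10 smooth muscle markers fell in the same libraries; their part was not tested. With the offset 8 of 20 contractile genes fell and 6 rose, and in the cyclic AMP list 3 of 18 fell and 2 rose. Among all 13782 genes tested with the offset, 3542 fell and 3439 rose. Plcb4, Arhgef1, Plcb3 and Adcy6 stayed called with it, at -1.42, -1.09, -0.66 and -0.94, while Arhgef12, Adcy5, Pde3a and Adcy7 did not, at -0.13, -0.07, -0.18 and -0.42.

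**Figure D4:**
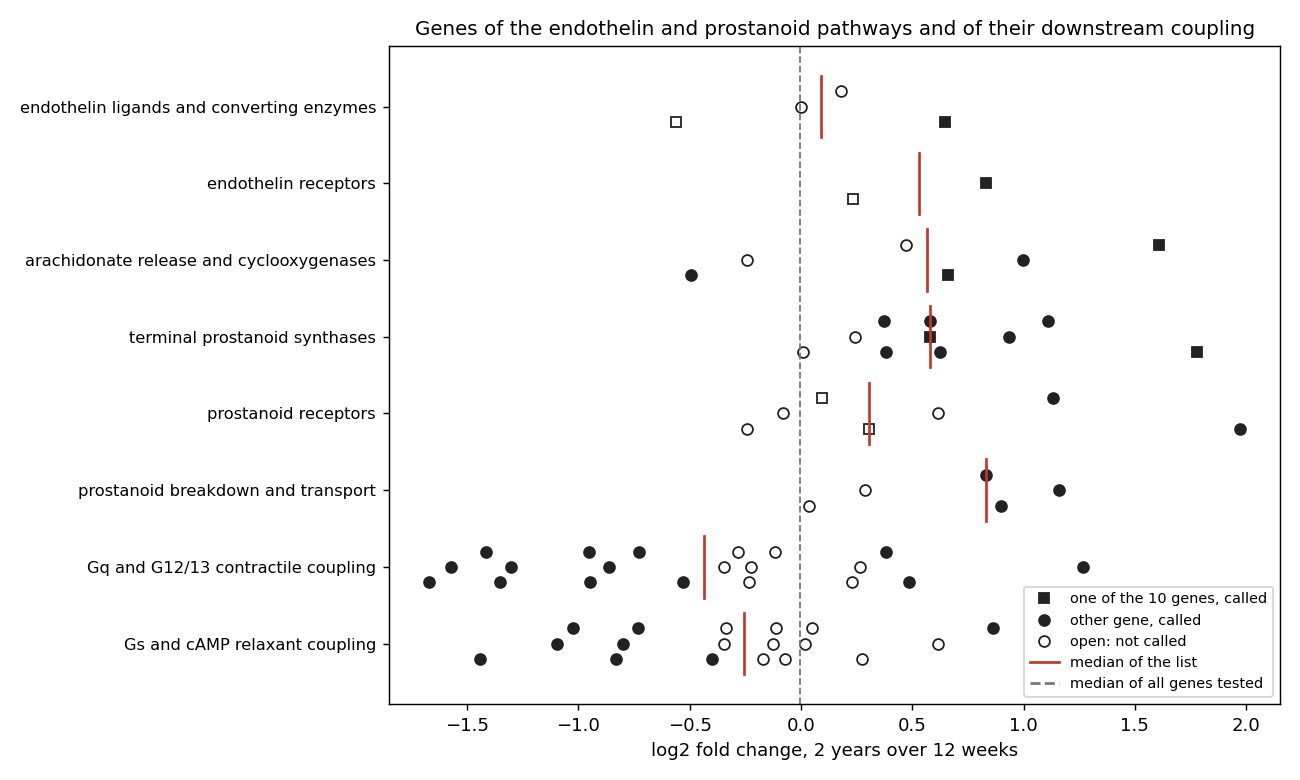
Log2 fold change, 2 years over 12 weeks, of every tested gene in 8 lists of the endothelin and prostanoid pathways and their coupling (squares, the 10 genes; circles, other genes; filled where called), with list medians in red and the median of all genes tested as a dashed line. Synthases, receptors and transporters sit mostly to the right of the dashed line and the contractile coupling list is centred at -0.44.

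For each called gene the 2 genes with the most similar profile were found among 12926 genes averaging 1 CPM or more, without predicted and clone-named genes, by the root mean square distance between centred log2 CPM over the 8 libraries. For Tbxas1 these were Tifa and Csf3r, both at a distance of 0.157 and both higher at 2 years (log2 fold changes 1.78 and 1.96). The distance spans both ages, so a shared direction follows from how the genes were picked and is no separate result. Ptgs2 lay nearest to Pcsk1 and Gapt, each at 0.212, and Ednrb to Ccl11 at 0.191 and Zfp456 at 0.209. Nearest to Ptgs1 were Sqor at 0.0597 and Sinhcaf at 0.0612, the closest matches of all. Ptgis was followed by Cd151 at 0.092 and Cyb561 at 0.0959, and Edn1 by Klf11 at 0.155 and Fam169b at 0.164. Klf11 and Fam169b did not pass the test between ages (edgeR adjusted p = 0.0687 and 0.0929), though Klf11 was called with the offset. Ccl11 and Cd151 were called higher (log2 fold changes 0.92 and 0.61), but not with the offset (0.16 and 0.33).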

How the data were processed

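Raw counts per gene symbol were deposited for each of the 8 libraries, per the labels and the file headers, and were whole numbers summing to a different total in each. The submitters' processing notes name the build GRCm39. The aligner, counter, annotation and strand handling were not stated in any source used here. The tables list 25526 genes, of which 8096 are at 0 in every library; edgeR's quasi-likelihood test was run on the 13978 that filterByExpr kept (TMM scaling, robust dispersions, age as the only term, Benjamini-Hochberg over all genes tested, called below 0.05). CPM use TMM-scaled library sizes and log2 CPM a prior count of 2. Intervals are 95%. The software was edgeR 4.0.16 and, for alternatives, limma 3.58.1 and DESeq2 1.42.0, in R 4.3.3. Ratios were tested by exact two-sided permutation over the 70 assignments of libraries to ages. Transcript length and GC share came by symbol from GENCODE M21 (build GRCm38; longest protein-coding transcript) for 13782 tested genes (98.6%). The offset removes natural splines of 4 degrees of freedom each on length and GC. It was chosen because earlier results of these data showed such a trend.

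The 10 genes, the pathway lists and the marker lists were chosen with earlier results of these data known. Other genes were named by rule: per list up to 4 called genes with the smallest p, or the 2 most abundant where none was called, and the 2 nearest profiles of each called gene. Genes named outside that rule, such as Ptges2, Rhoa, Gna11 and Plcb2, were chosen after their values were seen. No pair of libraries in a group agreed within sampling noise. The fitting was tested on simulated counts. One listed Schwann cell marker, and the list's sum, are not reported here. No source used here names sequencing or extraction batches, and a batch following age cannot be told apart from it.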

Additional observations from a re-analysis of the deposited data

Results flagged for a closer look

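In 9 of 116 groups of 4 libraries, 1 library stood far from the other 3, by Dixon's test of the gap to the nearest relative to the whole range. Chance flags about 1 group in 20. Among the 10 genes this was Edn1 at 36.5 CPM in 2 years replicate 4, against 26.7 to 28.01 CPM in the other 2-year libraries. The log2 ratio of Edn1 to endothelial markers was lowest in 2 years replicate 1 at -4.91, against -4.56 to -4.48 in the others. Slco2a1 was at 241.7 CPM in 2 years replicate 4, against 165.5 to 176.2 CPM in the others. The 12 weeks replicate 1 library was highest for Arhgef1 (178.7 CPM against 106.4 to 116.6) and for Adcy7 (209.9 CPM against 174.7 to 176.1), and lowest for Pde3a (383 CPM against 554 to 587). Adcy7 was lowest in 2 years replicate 3, at 64.0 CPM against 112.6 to 120.6. In 2 years replicate 4 Ccl11 was at 13.3 CPM against 24.9 to 26.7 in the others, and Csf3r at 6.35 CPM against 10.7 to 11.4. The cause of these values was not tested.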

How the results depend on the processing

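Of 160 fold changes of the 10 genes under 16 alternatives, 157 kept their direction. The exceptions were Tbxa2r at -0.07 without 12 weeks replicate 2, -0.03 without 2 years replicate 3 and -0.084 without replicate 3 of both ages, the other leave-outs reaching 0.29. Between 3 and 6 of the 10 genes were called with each library left out, 5 under the length and GC offset, 4 under the offset with the replicate block (Edn1 at 0.38 and Ptgis at 0.42 not called), and 6059 to 7689 over all genes tested against 7272. Mme ranged from -0.047 without 12 weeks replicate 1 to 0.49, and was at 0.50 without replicate 3 of both ages. Cbr1 turned to -0.21 with the offset, with or without the replicate block. Ece2 was at 0.0047 with DESeq2 size factors, 0.0050 with the DESeq2 test and 0.013 with the offset, and from -0.22 to 0.10 with libraries left out (0.06 without 12 weeks replicate 2, 0.03 without 2 years replicate 1 or 3, and 0.05 without replicate 3 of both ages). With the offset 9 of 15 ratios had an adjusted exact permutation p of 0.0476. Among paired genes these were Ednrb over Ednra at 0.68, Ptgs2 over Ptgs1 at 1.13 and Tbxas1 over Ptgis at 1.03. With libraries left out, Tbxa2r over Ptgir ranged from -0.32 to 0.044, Ece1 over endothelial markers from -0.36 to 0.040, Tbxas1 over macrophage markers from -0.047 to 0.20 and Ptgs2 over macrophage markers from -0.35 to 0.16. Tbxas1 over macrophage markers was -0.0037 with the offset and -0.16 with the mean of the markers' log2 CPM, and Ptgs2 over them was 0.25 with the offset. The cause was not tested. Deviations of same-numbered libraries from their group means correlated at -0.308, -0.116, 0.0511 and 0.0253, so the replicate numbers do not pair them. With the replicate block 6 of the 10 genes and 6432 genes in all were called, Pla2g6 (-0.49, edgeR adjusted p = 0.0987) and Cbr1 (0.37, adjusted p = 0.0729) lost their calls, and 6 of the 10 terminal synthases were called, or 3 with the block and the offset. The paired sign-flip test on ratios cannot give a p below 0.125. The 10 genes had 129 counts or more in every library.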
